A study of Mus musculus with 24 samples.

Results

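Atcayos, Pkd2l1 and Dapk2 are 3 genes that were chosen by their large falls at P30 in cortical nuclei lacking Kdm6b. They were labelled as outside myelin when chosen, and which cells express them was not tested. They are described here with Atcay, the gene that Atcayos overlaps on the opposite strand, so that 4 genes are followed among the 25135 listed. The study sequenced RNA from cortical nuclei of the Emx1 lineage, sorted by the SUN1-GFP nuclear tag, at postnatal day 1 (P1) and day 30 (P30). WT mice were Kdm6b wt/wt and Kdm6b-cKO mice were Emx1-Cre; Kdm6b f/f, both on a C57BL/6 background, both carrying the SUN1-GFP reporter, and littermates by the study's methods. The reporter needs Cre to be expressed, and Cre was driven by Emx1, which is active in the progenitors of cortical glutamatergic neurons, astrocytes and oligodendrocytes. Each genotype had 6 libraries at each age, 24 in all, numbered 0 to 5 as in the expression tables. The labels do not say whether libraries came from separate animals, so p-values measure the spread between libraries, which may be technical.

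KDM6B removes the repressive H3K27me3 mark from histone H3 and so can keep genes accessible during development. Atcay encodes caytaxin, a brain-enriched protein with a BCH lipid-binding domain, whose loss causes ataxia in humans and mice. Atcayos is a non-coding transcript read from the other strand of the Atcay locus. Pkd2l1 encodes a polycystin cation channel of the TRP superfamily, best known from neurons that contact the cerebrospinal fluid. Dapk2 encodes a calcium- and calmodulin-regulated kinase of the death-associated protein kinase family, studied in cell death and autophagy.

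Atcay and Atcayos lie on chromosome 10 of the mouse build mm9, in 1 deposited locus at chr10:80657436-80693531. The same locus holds Nmrk2, a nicotinamide riboside kinase gene, so 3 genes were quantified from 1 overlapping stretch. In the GENCODE vM1 annotation of the same build, Atcay runs on the minus strand from 80693578 down to 80667253. Atcayos, listed there as 2310050B05Rik, starts at 80657354 on the plus strand and reaches 80673622 in transcript 002. It therefore enters Atcay from the 3′ end. Its exon 2 in transcript 001 shares 56 bases, chr10:80670598-80670653, with exon 11 of Atcay, which is coding in the main Atcay transcript. Transcript 002 has a longer exon 2 that also covers 36 bases of Atcay exon 10 and 99 bases of Atcay exon 9. A short window over the edge of the shared stretch is printed. A read lying within the shared bases cannot be given to 1 gene without knowing its strand. The window is chr10:80670639-80670668, plus strand, mm9, and capitals mark the 15 bases that are exonic in both genes. The lower-case bases are exonic in Atcayos and intronic in Atcay.
Atcayos and Atcay shared edge: TGCGGTGGCCGTGTGctgtgaacagaaaga
Whether the reads were counted by strand is not given in the sources used here, and reads of Atcay and Atcayos in the shared stretch cannot be told apart.

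**Figure D1:**
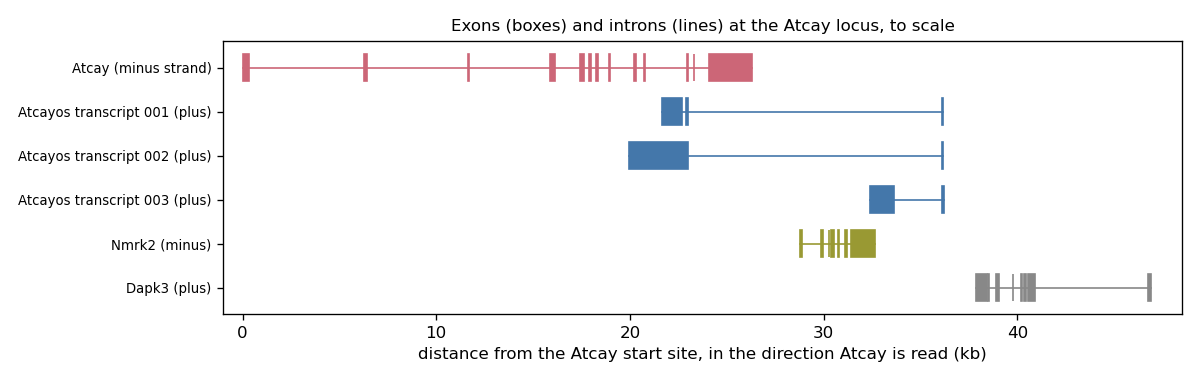
Exons (boxes) and introns (lines) of the genes at the Atcay locus in GENCODE vM1, drawn to scale, with the distance from the Atcay start site in kb on the horizontal axis and 1 row per transcript. Atcayos transcripts 001 and 002 end inside Atcay, transcript 003 ends before it over Nmrk2, and Dapk3 lies next to the Atcayos start.

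The 250 bases upstream of 2 of the 4 genes were found in the RefSeq promoter table (build GRCm38.p6), and they are printed because KDM6B acts on chromatin at promoters. Capitals mark CG dinucleotides. The Atcayos window is chr10:81194441-81194690 and the Dapk2 window is chr9:66157976-66158225, both on the plus strand of GRCm38.p6. Atcay and Pkd2l1 had no entry.
Atcayos promoter: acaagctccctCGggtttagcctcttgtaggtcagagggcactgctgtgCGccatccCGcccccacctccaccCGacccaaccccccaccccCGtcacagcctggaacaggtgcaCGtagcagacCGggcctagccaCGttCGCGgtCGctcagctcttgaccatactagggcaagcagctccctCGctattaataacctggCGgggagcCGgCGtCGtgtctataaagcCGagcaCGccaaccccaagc
Dapk2 promoter: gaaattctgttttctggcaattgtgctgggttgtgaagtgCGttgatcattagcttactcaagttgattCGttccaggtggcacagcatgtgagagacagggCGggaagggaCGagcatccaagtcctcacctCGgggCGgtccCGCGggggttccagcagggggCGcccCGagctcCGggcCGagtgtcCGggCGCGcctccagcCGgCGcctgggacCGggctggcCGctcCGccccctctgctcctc
The Atcayos window held 18 CG and the Dapk2 window 20, against a median of 6 over 27025 promoters of the same length. Of those promoters, 78.4% held fewer CG than Atcayos and 82.3% fewer than Dapk2. The letters ACAAAG and ACAATG, which resemble SOX-type sites, were searched on both strands and occurred in neither window, against 16.5% and 11% of all promoters. The absence of these letters says nothing about binding.

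Expression was given as FPKM, fragments per kilobase of transcript and scaled to library depth, which corrects for gene length. Within an age, limma compared the genotypes on log2(FPKM + 0.1), for every gene whose 12 libraries averaged 1 FPKM or more. Differences of low genes on this scale depend on the added 0.1 FPKM. A gene was called when its Benjamini-Hochberg adjusted p over all genes tested was under 0.05 and it changed more than 2-fold. At P30, 13289 genes were tested, and 37 were called (0.278%), of which 30 were lower (0.226%) and 7 higher (0.0527%). The total depended on the fit. It was 2 without WT library 2, 3 or 5, and 530 with library weights, 550 with the level of the ribosomal RNA precursor Rn45s, above or under 1000 FPKM, as a term (365 lower and 185 higher) and 415 with only libraries above 3000000 reads of depth. At P1, 16250 genes were tested and none was called (0%), although 2352 had an unadjusted limma p below 0.05. No adjusted p at P1 was below 0.16. Leaving out Kdm6b-cKO library 4 raised the P1 count to 51.

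Because 1 read adds a fixed step to the FPKM of a gene, the effective depth behind the values could be recovered from the steps of genes with few reads. It ranged from 5130000 to 8310000 reads in WT and from 1940000 to 8060000 in Kdm6b-cKO at P30, and from 803000 to 3910000 and 192000 to 2860000 at P1. At P30, Kdm6b-cKO libraries 2, 3 and 4 were under 3000000 reads and no WT library was. Libraries also differed in technical signals. At P1, WT libraries 2 to 5 and Kdm6b-cKO library 5 listed 397 to 794 olfactory receptor genes above 0, and the others 2 to 22. At P30, Rn45s was under 1000 FPKM in WT library 0 and Kdm6b-cKO libraries 0, 1 and 5, and above it elsewhere. Kdm6b itself was 21.6 ± 4.08 FPKM in WT and 23.4 ± 4.36 in Kdm6b-cKO at P30 (SD, n = 6), and 37.8 ± 11.3 and 29.0 ± 9.67 at P1 (limma adjusted p 0.828 and 0.533). A difference of Kdm6b was thus not detected at either age. The row gives 1 value for the whole gene and is not used as a check of the deletion. Which exons its reads came from was not tested. By qRT-PCR of sorted nuclei, the study reported an efficient loss of Kdm6b mRNA. The glutamatergic marker Slc17a7 was present at 172 ± 23.5 FPKM in WT and 137 ± 67.9 in Kdm6b-cKO at P30. Emx1 stood at 2.84 ± 2.19 and 3.92 ± 2.5 FPKM.

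Atcayos was low in every P30 library. In WT it was 1.14, 1.48, 2.97, 3.49, 3.22 and 6.29 FPKM in libraries 0 to 5, with a mean of 3.1 ± 1.84 (SD, n = 6). In Kdm6b-cKO it was 1.11 FPKM in library 1 and listed at 0 in the other 5. The groups did not overlap, but the lowest WT library, at 1.14, and the single Kdm6b-cKO library above 0, at 1.11, were nearly level. Read as steps, the WT values came to 1, 1, 2, 2, 3 and 4 reads, 13 in all, and the Kdm6b-cKO values to 1 read in all. All values lay within 0.00418 of a whole read, but the length behind the steps was chosen for this closeness, which is no check. A single read was worth 1.07 to 1.74 FPKM in WT, but 3.35, 3.42 and 4.6 FPKM in Kdm6b-cKO libraries 2, 3 and 4, more than the WT mean. A value of 0 in those 3 libraries therefore could not be told from the WT level. The steps imply an effective length of 112 bases, far under the 1117 to 3057 exonic bases of the annotated Atcayos transcripts, so a step may stand for more than 1 fragment if the authors used a longer model. The summed effective depth was 39000000 reads in WT and 27200000 in Kdm6b-cKO. The fitted difference was -4.2 on the log2(FPKM + 0.1) scale (SE 0.73). No test is given, since this contrast chose the gene.

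Pkd2l1 had many more reads and a clearer separation. Its WT libraries held 2.0, 2.5, 2.12, 2.75, 2.19 and 2.31 FPKM, a mean of 2.31 ± 0.273 (SD, n = 6). The Kdm6b-cKO libraries held 0.233, 0.159, 0.601, 0.123, 0.99 and 0.375 FPKM, a mean of 0.413 ± 0.332. The highest Kdm6b-cKO library, 4, was at 0.99 FPKM, under the lowest WT library, 0, at 2.0. In FPKM the spread was similar in both genotypes. The reads were 49, 47, 40, 44, 57 and 41 in WT, 278 in all, and 5, 4, 5, 1, 6 and 6 in Kdm6b-cKO, 27 in all. Per unit depth the Kdm6b-cKO reads were 0.139 times those of WT. The fitted log2 difference was -2.46 (SE 0.45).

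Dapk2 also had no overlap between genotypes. Its WT libraries held 1.62, 3.82, 3.6, 4.11, 2.07 and 2.25 FPKM, a mean of 2.91 ± 1.05 (SD, n = 6), with libraries 1 to 3 at 3.6 to 4.11 and the others at 1.62 to 2.25. Its Kdm6b-cKO libraries held 0.744, 0.475, 0.719, 0.489, 0.329 and 0.498 FPKM, a mean of 0.542 ± 0.159. In FPKM the WT libraries varied more, around a higher mean. The reads were 20, 36, 34, 33, 27 and 20 in WT, 170 in all, and 8, 6, 3, 2, 1 and 4 in Kdm6b-cKO, 24 in all. Per unit depth, Kdm6b-cKO had 0.202 times the WT reads, and the fitted log2 difference was -2.19 (SE 0.35).

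**Figure D2:**
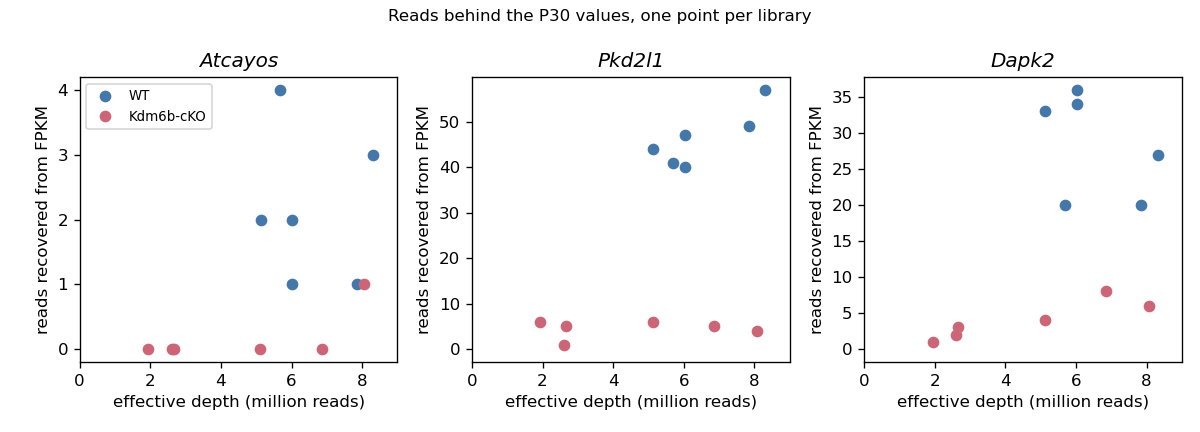
Reads recovered from the P30 values (vertical axis) against effective depth in reads (horizontal axis, drawn in units of 1000000), 1 point per library, for the 3 chosen genes in WT (blue) and Kdm6b-cKO (red). Atcayos rests on 0 to 4 reads a library, while Pkd2l1 had 40 to 57 reads in WT against 1 to 6 in Kdm6b-cKO and Dapk2 20 to 36 against 1 to 8.

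All 3 genes were among the 30 called falls, which the rule for choosing them used, and no reading is made of that count. Leaving out each of the 12 libraries in turn ended the call of Atcayos in 8 cases, of Pkd2l1 in 10 and of Dapk2 in 7, and quantile normalization ended those of Pkd2l1 and Dapk2. Their log2 differences without single libraries were -4.8 to -3.96, -2.72 to -2.26 and -2.33 to -2.07. Over all genes tested at P30, 1.05% had every Kdm6b-cKO library below every WT library. With means over 12 libraries of 1.64, 1.36 and 1.73 FPKM, Atcayos, Pkd2l1 and Dapk2 passed the filter of 1 FPKM through their WT libraries. By size of the fitted fall they ranked 2, 5 and 6 of 30. The falls next to them were BC048507 at -4.86 and Ly6m at -2.49, both with overlapping groups, Slc17a6 at -2.98 and the myelin-associated Ppp1r14a at -2.11. The smallest called fall was -1.02 (Abcc10). In sorted bulk nuclei, fewer nuclei of a type and less RNA per nucleus cannot be told apart. The values within the Rn45s groups are a description. Since every Kdm6b-cKO library was below every WT library, any split of the libraries keeps the direction. Among libraries past the limit (5 WT and 3 Kdm6b-cKO), Atcayos was 1.48 to 6.29 against 0, Pkd2l1 2.12 to 2.75 against 0.123 to 0.99, and Dapk2 2.07 to 4.11 against 0.329 to 0.719 FPKM. Among those under it (1 WT and 3 Kdm6b-cKO), Pkd2l1 was 2.0 against 0.159 to 0.375 and Dapk2 1.62 against 0.475 to 0.744 FPKM. Atcayos was 1.14 against 0 to 1.11 FPKM there, a margin under the worth of 1 read.

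Atcay, the sense gene, was far more abundant than Atcayos. At P30 its WT libraries held 42.0, 33.6, 39.2, 40.7, 35.5 and 36.4 FPKM, a mean of 37.9 ± 3.26 (SD, n = 6). Its Kdm6b-cKO libraries held 37.3, 34.9, 42.5, 23.5, 23.7 and 32.6 FPKM, a mean of 32.4 ± 7.56. Kdm6b-cKO libraries 3 and 4 were low, and library 2 was the highest of all 12, so the groups overlapped. Libraries 3 and 4 were also the shallowest at P30 and had the highest Rn45s, at 15419.8 and 25878.3 FPKM. The log2 difference was -0.25 (SE 0.17) with a limma adjusted p of 0.563, and permuting the 12 libraries gave an exact two-sided p of 0.145. With only libraries above 3000000 reads of depth, the log2 difference was -0.11. A change of Atcay at P30 was not detected. Nmrk2, the third gene of the locus, averaged 0.767 ± 0.896 FPKM in WT and 0.716 ± 0.534 in Kdm6b-cKO, under the filter, with an exact permutation p of 0.745.

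**Figure D3:**
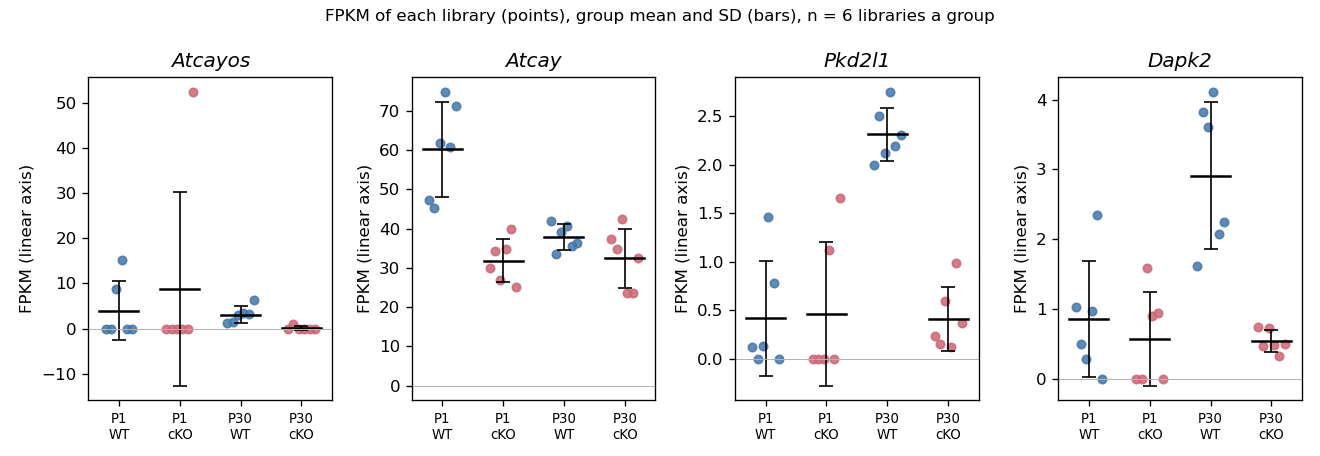
FPKM of each library (points) on linear axes for the 4 genes in WT (blue) and Kdm6b-cKO (red) at P1 and P30, with group means and SD as black bars, n = 6 libraries a group. At P30 all Kdm6b-cKO points of Atcayos, Pkd2l1 and Dapk2 lie below all WT points, whereas at P1 this holds for Atcay alone of the 4.

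At P1, in libraries that took no part in choosing the genes, the pattern was different. Atcay held 47.4, 45.2, 61.9, 74.8, 60.8 and 71.3 FPKM in WT, a mean of 60.2 ± 12.1 (SD, n = 6), and 30, 34.2, 26.9, 34.9, 39.8 and 25.2 FPKM in Kdm6b-cKO, a mean of 31.8 ± 5.47. Every Kdm6b-cKO library was below every WT library, as for 0.683% of the genes tested at P1. The log2 difference was -0.91 (SE 0.21), which did not pass over all genes (limma adjusted p 0.178). Permuting the libraries for Atcay alone gave an exact two-sided p of 0.00216, the smallest that 6 against 6 libraries allow. Over all genes tested the median log2 difference at P1 was -0.25, and it was -0.02 after quantile normalization, where that of Atcay was -1.14. Marker lists of several cell types also had medians under that of all genes at P1, with none of their genes called. The medians were -0.87 for microglia (8 of 8 tested genes negative), -0.82 for mature oligodendrocytes (6 of 9), -0.77 for astrocytes (5 of 7), -0.74 for endothelial and mural cells (5 of 7) and -0.71 for deep layer and subplate neurons (8 of 9). Thalamic-type neurons were at -0.52, GABAergic neurons at -0.35 and glutamatergic neurons at -0.26. Upper layer neurons, at 0.07, and ependyma and choroid plexus, at -0.03, lay above the median of all genes. In summed level the groups overlapped, at 63.9 to 155 FPKM in WT and 19.2 to 153 in Kdm6b-cKO for microglia and 140 to 177 and 90.9 to 161 for deep layer neurons. Their part in the Atcay difference was not tested. The olfactory receptor signal moved with the WT level. Among libraries under the limit, 2 WT libraries at 45.2 and 47.4 FPKM were above 5 Kdm6b-cKO libraries at 26.9 to 39.8, a log2 difference of -0.49 (exact permutation p = 0.0476, the smallest this grouping allows). Among those past it, 4 WT libraries held 60.8 to 74.8 FPKM and the single Kdm6b-cKO library 25.2. The part of that signal in the difference was not tested further. The Atcay difference at P30 was 0.66 log2 units closer to 0 than at P1, which an exact permutation of genotypes within each age, added after seeing the data, did not separate (p = 0.0615).

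Atcayos at P1 was listed at 0 in 4 WT and 5 Kdm6b-cKO libraries. The read step was fitted anew at P1, from few values, at an effective length of 101 bases. The values above 0 were 8.72 and 15.3 FPKM in WT libraries 2 and 3, or 2 reads each, and 52.5 FPKM in Kdm6b-cKO library 5, which was 1 read at a depth of 192000. All 3 of these libraries were past the olfactory receptor limit. The log2 difference was -0.78 (SE 1.86, limma adjusted p 0.861), and a difference was not detectable at this depth. The log2 ratio of Atcayos to Atcay averaged -6.92 in WT and -6.79 in Kdm6b-cKO (exact permutation p = 0.974). Once that signal entered the fit as a term, the difference of these ratios went from 0.13 to 2.83 (exact permutation within the 2 library groups, p = 0.00952, the smallest this grouping allows), a value that turns on the 1 read of Kdm6b-cKO library 5. Without that library, and without the term, the difference was -1.44.

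Pkd2l1 was nearly absent at P1 in both genotypes. In WT it was 0.129, 0, 0.138, 1.46, 0.778 and 0 FPKM in libraries 0 to 5, and in Kdm6b-cKO 1.12 in library 3, 1.66 in library 5 and 0 in the other 4. These were 10 reads in WT and 11 in Kdm6b-cKO, of which 10 lay in Kdm6b-cKO library 3. The log2 difference was -0.3 (exact permutation p = 0.708), and reads per unit depth had a ratio of 1.33 (95% exact binomial interval 0.513 to 3.5, counting error only). The sign of the log2 difference turned with the technical term (0.82), so no direction is drawn.

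Dapk2 at P1 was likewise low and mixed. In WT it was 1.03, 0.491, 0.277, 0.974, 2.34 and 0 FPKM, and in Kdm6b-cKO 0, 0, 1.59, 0.898, 0.935 and 0 FPKM. The reads came to 13 in WT and 15 in Kdm6b-cKO, a ratio per unit depth of 1.4 (0.62 to 3.19, counting error only). The log2 difference was -0.87 (exact permutation p = 0.407). The 3 Kdm6b-cKO libraries at 0 were those under 1000000 reads, 0, 1 and 5, and among libraries above that depth the difference was 1.31 (exact permutation p = 0.196). Pkd2l1 and Dapk2, with 0.441 and 0.711 FPKM over the 12 P1 libraries, did not reach the filter. In the fit without a filter their limma adjusted p were 0.897 and 0.679. Set side by side, since the ages were normalized as separate tables, WT means went from 0.417 FPKM at P1 to 2.31 at P30 for Pkd2l1 and from 0.852 to 2.91 for Dapk2, against 0.464 to 0.413 and 0.571 to 0.542 in Kdm6b-cKO. The P30 values are those that chose the genes and the P1 values rest on few reads. A change with age was not tested.

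Genes around the 3 loci were not called at P30. Over all genes tested only 0.278% were called, so the absence of a call among so few genes is no result. Of 19 other genes listed in or within 100 kb of the Atcay locus, 12 were tested, with log2 differences of -1.9 to 0.15 and a median of -0.32, and the smallest limma adjusted p was 0.347. The nearest were Dapk3 (-0.36) and the translation elongation factor gene Eef2 (0.15) on one side, and Zfr2 (-0.36) and Matk (0.05) on the other. The Pkd2l1 locus, chr19:44222127-44266932 in mm9, is read from the minus strand. Of 5 genes around it 4 were tested, at -0.36 to 0.25 (smallest adjusted p 0.644), among them Bloc1s2 at -0.25 and Cwf19l1 at 0.25. Scd3, the only neighbour on its other side, was under the filter. The Dapk2 locus, chr9:66006033-66120049, is read from the plus strand. All 6 genes around it were tested, at -0.31 to 0.9 (smallest adjusted p 0.372), the nearest being Ciao2a at -0.14, Snx1 at -0.31, Herc1 at 0.13 and Fbxl22 at 0.9.

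**Figure D4:**
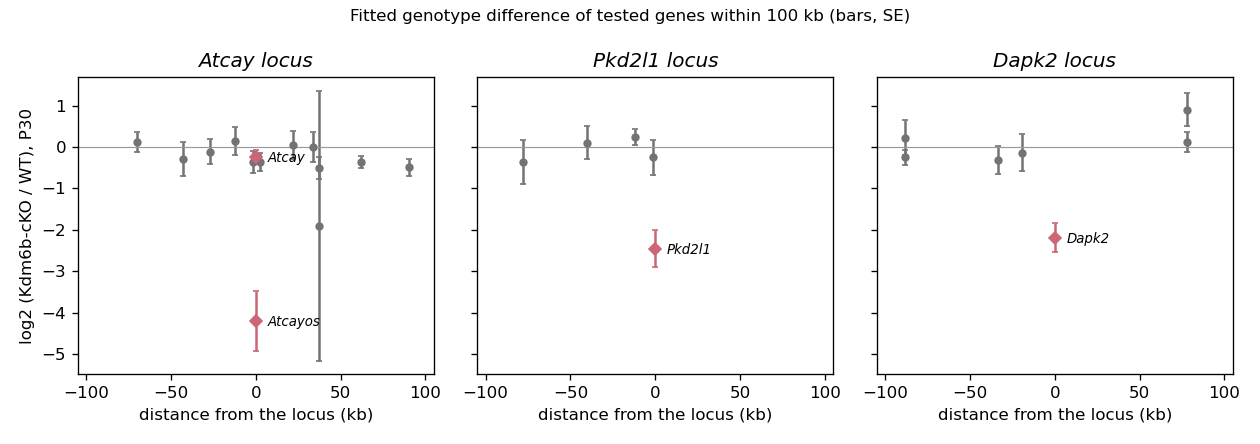
Fitted log2 difference of Kdm6b-cKO against WT at P30 (vertical axis, bars are SE) against distance from the locus in kb (horizontal axis) for tested genes within 100 kb of each locus, with the 4 genes described here as red diamonds and neighbours in grey. Neighbours other than the microRNA gene Mir3057, at -1.9 with a wide error, lie between -0.51 and 0.9.

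Other opposite-strand genes were compared as a class. The tables list 137 genes whose symbol is that of another listed gene followed by os, and 89 of them share a deposited locus with the sense gene. At P30, 52 passed the filter, and their median log2 difference was -0.38 against -0.05 over all genes tested, with 35 of 52 below 0. Among them Atcayos alone was called, by the contrast that chose it, against 0.278% of all genes tested. The next lowest were Ccpg1os at -3.03, Ppp2r2cos at -2.82 and Man2c1os at -2.27, and the smallest limma adjusted p without Atcayos was 0.215. Of the 49 pairs with both genes tested, 29 had differences of the same sign. At P1, 84 passed the filter, none was called, and their median was -0.55 against -0.25 over all genes. Many of these genes were low, with 0 in some libraries, and the shallowest library at each age was a Kdm6b-cKO library. Genes of like level were not compared, and shares of sign over all genes were not taken. The medians and counts of sign are therefore not read as traits of the class.

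**Figure D5:**
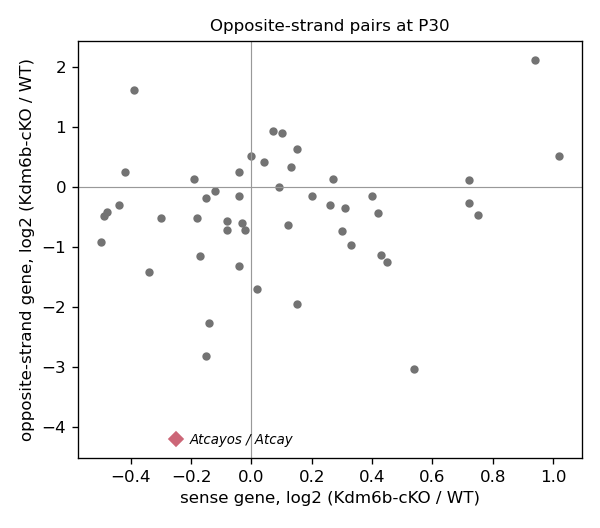
Log2 difference of Kdm6b-cKO against WT at P30 for the sense gene (horizontal axis) and its opposite-strand partner (vertical axis), 1 point per pair with both genes tested, n = 49 pairs. The Atcayos and Atcay pair (red diamond) sits lowest, at -4.2 for Atcayos and -0.25 for Atcay.

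The families and partners of the encoded proteins were followed from fixed lists. With 0.278% of all genes tested called at P30, the absence of a call in lists this short is no result. Of 8 genes of the BCH family and of caytaxin partners, 6 were tested at P30 and none was called, with log2 differences of -0.36 to 0.23 and a median of -0.03 against -0.05 over all genes. Klc1, a kinesin light chain, was 109 ± 13.7 FPKM in WT and 94.2 ± 26.0 in Kdm6b-cKO (log2 difference -0.26, limma adjusted p 0.636), and Arhgap1 was at -0.32. Of 7 polycystin genes, Pkd1l1 was not found under that symbol, 3 were tested and none was called. Pkd1 was 27.5 ± 3.16 FPKM in WT and 22.4 ± 7.65 in Kdm6b-cKO (-0.36, adjusted p 0.499), Pkd2 was at 0.16 and Pkd2l2 at -0.34. Of 9 genes of the DAPK family, calmodulin and kinase substrates, 8 were tested and none was called, at -1.92 to 0.35 with a median of -0.13. The lowest was Myl12a, a myosin regulatory light chain gene named after its value was seen, at 4.69 ± 1.12 FPKM in WT and 2.11 ± 1.7 in Kdm6b-cKO (limma adjusted p 0.336). Dapk1 was 29.1 ± 4.04 FPKM in WT and 29.3 ± 5.67 in Kdm6b-cKO (limma adjusted p 0.996), and Dapk3 was 28.8 ± 6.84 and 23.7 ± 10.9 (adjusted p 0.634). Both stood far above the WT level of Dapk2. The calmodulin gene Calm2 was at 0.35 and Becn1, an autophagy gene, at -0.03. At P1, 6, 3 and 9 genes of the 3 lists were tested and none was called.

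Marker levels of other cells at P30 were read beside the falls. Over all genes tested, 0.278% were called. The 12 mature oligodendrocyte markers summed to 309 to 580 FPKM in WT and 142 to 220 in Kdm6b-cKO at P30, and all 12 had negative log2 differences, of which Mbp, Mag and Ppp1r14a were called. Their part in the falls of Atcayos, Pkd2l1 and Dapk2 was not tested. The 10 GABAergic neuron markers summed to 41.5 to 527 FPKM in WT and 196 to 374 in Kdm6b-cKO, with 8 tested, all with positive log2 differences and none called. The astrocyte sums were 87.6 to 149 and 75.9 to 146, the microglial sums 7.31 to 45 and 15.8 to 33.7, the vascular sums 3.64 to 14.7 and 6.33 to 13.0, and the ependymal and choroid plexus sums 0.467 to 20.7 and 4.23 to 19.6 FPKM, with none called in these lists. No marker was at 0 in all 12 libraries. A list of 7 genes was named for Slc17a6, the vesicular glutamate transporter VGLUT2, and thalamic-type glutamatergic neurons. It was chosen with earlier results of these data known. Slc17a6 was 2.56 ± 0.39 FPKM in WT and 0.345 ± 0.351 in Kdm6b-cKO (log2 difference -2.98, limma adjusted p 0.0408). With a mean of 1.45 FPKM over 12 libraries, it passed the filter through its WT libraries. It was the only gene of the list called, and no reading is made of that call. The other 6 lay at -0.81 to 1.12.

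The genes most like each of the 4 were found from the Pearson r of log2(FPKM + 0.1) over the 12 P30 libraries after subtracting genotype means. The points share libraries and depth, and no p is given. Each partner was picked as the highest of all genes tested, so its r is high by selection. No r here is taken as co-expression. Atcay went with Wdr45 (r = 0.97), Tcp1 (0.97) and Ddb2 (0.95). Dapk2 went with Tbcb (0.94), Fryl (0.92) and Socs7 (0.9), and Pkd2l1 with Myl4 (0.87), Pak1ip1 (0.85) and Boc (0.85). For Atcayos the 3 closest were the small RNA genes Mir212, Mir6415 and Snord88c (0.86 each). Kdm6b-cKO library 1, with 1 read, was the only one of its genotype above 0. Every r of Atcayos given here therefore also leans heavily on that read. None of these 12 genes was called, against 0.278% of all genes tested, and the lowest was Myl4, at -1.35 with a limma adjusted p of 0.242. Among themselves the 3 chosen genes had r of -0.33 (Atcayos and Pkd2l1), -0.03 (Atcayos and Dapk2) and -0.05 (Pkd2l1 and Dapk2), and Atcayos and Atcay had r = 0.14.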

How the data were processed

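RNA of sorted nuclei was made into libraries with the VAHTS Universal V10 kit, per the labels. HISAT2 alignment to mm9 and Cuffdiff quantification by the authors gave FPKM values, deposited per library in 1 table an age. Versions and strand setting are not given in the sources used here. Their comparison tables also hold group FPKM, fold changes, test scores, p-values and q-values, and only the locus column was used. Depth and reads were recovered from FPKM steps, taking fragments of 200 bases. Tests used limma 3.58.1 (R 4.3.3; trend, tested on simulated data) and exact two-sided permutations over 924 assignments of 12 libraries. Limits of 100 olfactory receptor genes and 1000 FPKM of Rn45s defined technical groups. Genes were named by rule: the members, family genes with the highest mean FPKM, the nearest 2 neighbours a side, the 3 most alike genes, falls of similar rank and opposite-strand genes. A few genes that the rule names are not reported here. The members and lists were chosen with earlier results of these data known. Marker genes and opposite-strand examples beyond the rule were named after their values were seen. Alternatives changed the pseudocount (1 or 0.01), the filter (absent, or 5 FPKM on average), the scaling (median-of-ratios or quantile), added library weights or the technical group as a term, or left out each library in turn. The other steps ran in Python 3.11.15 (numpy 2.4.6, pandas 2.3.3) with exact intervals from scipy 1.17.1 and plots from matplotlib 3.10.9.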

Additional observations from a re-analysis of the deposited data

Results flagged for a closer look

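Atcayos had 1 library far from the rest of its group at each age. At P1, Kdm6b-cKO library 5 stood at 52.5 FPKM while the other 5 were at 0, and at P30, Kdm6b-cKO library 1 stood at 1.11 FPKM while the other 5 were at 0. Both values were 1 read. The 16 groups of 6 libraries were examined with a Dixon limit of 0.625, which chance passes in about 5% of groups with normally spread values. With 5 libraries at 0 and 1 above it, the Dixon ratio is at its largest whatever the value. That rate therefore does not hold for these groups.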

How the results depend on the processing

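No paired analysis was possible because the columns of the tables carry numbers 0 to 5 that could not be matched to the replicate numbers of the labels. At P30 the count of 37 called genes became 530 with library weights, 550 with the technical group as a term and 415 with only libraries above the depth limit of 3000000 reads (1000000 at P1), an alternative added after seeing the data. Leaving out 1 library gave 2 to 43: 22, 2, 2, 5 and 2 without WT libraries 1 to 5, and 8, 10 and 21 without Kdm6b-cKO libraries 0, 1 and 5. Leaving out each of 12 libraries lost the P30 call of Atcayos in 8 cases, of Pkd2l1 in 10 and of Dapk2 in 7, and quantile normalization lost those of Pkd2l1 and Dapk2. The P30 differences stayed negative in all 19 alternatives each. No support is drawn from this, since the contrast chose the genes. Leaving out libraries or changing the pseudocount also cannot turn the sign when groups do not overlap. With pseudocount 1 they were -1.74 (Atcayos), -1.25 (Pkd2l1) and -1.3 (Dapk2), and with 0.01 Atcayos was -6.93; without single libraries they were -4.8 to -3.96, -2.72 to -2.26 and -2.33 to -2.07. At P1 the count of 0 became 96 above the depth limit, and 0 to 51 without single libraries (2 without WT library 4, 51 without Kdm6b-cKO library 4). Atcay did not pass in any of 21 alternatives at either age, at -1.14 to -0.79 at P1 (adjusted p 0.0613 to 0.413 with single libraries left out) and -0.34 to -0.11 at P30. The P1 directions of the other genes were not stable. Pkd2l1 was 0.0 with pseudocount 1, 0.61 after quantile normalization, 0.82 with the technical group, and -0.87 to 0.18 without single libraries, turning positive without WT library 3 (0.18) or 4 (0.01). Dapk2 was 0.52 after quantile normalization, 1.31 above the depth limit and -1.41 to -0.48 without single libraries. Atcayos was 0.18 after quantile normalization, 2.01 with the technical group and -2.29 to 0.21 without single libraries, positive without WT library 2 (0.05) or 3 (0.21). Atcayos minus Atcay was -0.42 with pseudocount 0.01, 2.83 with the technical group, -1.93 above the depth limit and -1.44 to 1.06 without single libraries, negative without WT libraries 0, 1, 4 or 5 (-0.27, -0.25, -0.34 and -0.38) or Kdm6b-cKO library 5 (-1.44). The causes were not tested. A mean of at least 5 FPKM removed Atcayos, Pkd2l1 and Dapk2 at P30, and Pkd2l1 and Dapk2 at P1 gave no value under it. Library weights were not run for the values compared by permutation alone.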

Other observations

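Markers of the cortical neurons that make up most of the sorted lineage were followed beside the 4 genes at P30. With 0.278% of all genes tested called, the absence of a call in lists this short is no result. Of 9 deep layer and subplate genes listed, 8 were tested and none was called, with a median log2 difference of 0.03. Of 7 upper layer genes 6 were tested and none was called, with a median of -0.23, the lowest being Rorb at 3.34 ± 0.798 FPKM in WT and 1.35 ± 0.719 in Kdm6b-cKO (SD, n = 6, log2 difference -1.37, limma adjusted p 0.143). All 8 glutamatergic genes were tested and none was called, with a median of -0.39. The smallest adjusted p was that of Nrgn, the calmodulin-binding protein neurogranin, at 418 ± 56.7 and 233 ± 26.2 FPKM (-0.83, limma adjusted p 0.0536). Its change was also under the 2-fold limit of a call.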
